A study of Mus musculus with 2 samples.

Results

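The 9 microRNA genes described here form 3 clusters in the mouse genome, and each cluster holds 1 gene of the miR-99/100 family, 1 of the let-7 family and 1 of the miR-125 family. They are Mir99a, Mirlet7c-1 and Mir125b-2, then Mir99b, Mirlet7e and Mir125a, and lastly Mir100, Mirlet7a-2 and Mir125b-1. The members were chosen by symbol, through the Ensembl identifiers of GENCODE release M21 (build mm10), and make up 9 of the 2202 microRNA genes in the tables. The rule uses gene names, not measured levels.

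Small RNA was sequenced from the heart of females with the strain label 5xFAD/CAST at an adult age of 8 to 10 months. Mice of the 5xFAD line carry transgenes driven by the neuronal Thy1 promoter, as a model of Alzheimer disease, and CAST names inbred mice of wild origin. The design holds 1 group of 2 libraries, labelled biological replicates 1 and 2, without a control group, and the labels do not say whether both carry the transgene or how the strains were combined. Both libraries carry the same donor identifier but different biosamples, and nothing names separate animals. Whether they come from separate animals is therefore unclear, and the spread between them may be technical. MicroRNA genes received 4186560 reads in replicate 1 and 2877511 reads in replicate 2, and levels are given as counts per 1000000 of these reads (CPM).

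MicroRNAs are short RNAs cut from hairpin precursors, and the seed, bases 2 to 8 of the mature strand, pairs with target messages and lowers their output. The let-7 family and the miR-125 family, the relative of worm lin-4, are known from Caenorhabditis elegans as timers of development, and in vertebrates let-7 represses growth genes such as Hmga2 and is itself blocked by the RNA-binding protein Lin28. The miR-99/100 family is known to repress Mtor and Igf1r, which promote growth. The arrangement of the clusters is old: in the fly, mir-100, let-7 and mir-125 also come from 1 transcript.

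The mature 5p strands are shown first because some of them occur in more than 1 gene, and reads at several loci were assigned to no gene. Capitals mark the seed, and the sequences are those of RefSeq for build GRCm38.p6, so they are reference sequences and not CAST alleles. The miR-99/100 strands come from Mir99a, Mir99b and Mir100.
miR-99a-5p: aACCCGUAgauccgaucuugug
miR-99b-5p: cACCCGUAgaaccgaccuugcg
miR-100-5p: aACCCGUAgauccgaacuugug
All 3 share the seed ACCCGUA. Counted from 1 at the 5′ end, miR-100-5p and miR-99a-5p differ by A16U alone, while miR-99a-5p and miR-99b-5p differ by A1C, U11A, U16C and U21C. None of these strands is found whole in another annotated precursor.

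The let-7 strands come from Mirlet7c-1, Mirlet7e and Mirlet7a-2.
let-7c-5p: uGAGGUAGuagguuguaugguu
let-7e-5p: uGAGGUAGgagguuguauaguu
let-7a-5p: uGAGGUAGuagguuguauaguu
The let-7a and let-7c strands differ by A19G, and the let-7a and let-7e strands by U9G. The let-7c strand is also encoded by Mirlet7c-2 and the let-7a strand by Mirlet7a-1, both outside the clusters, whereas the let-7e strand is found in Mirlet7e alone among the 2202 precursors.

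The miR-125 strands come from Mir125a and, as 1 identical strand, from Mir125b-1 and Mir125b-2.
miR-125a-5p: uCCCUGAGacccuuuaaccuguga
miR-125b-5p: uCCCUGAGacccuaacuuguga
The pair that shares miR-125b-5p lies in 2 of the clusters. Thus 4 of the 9 members (Mirlet7c-1, Mirlet7a-2, Mir125b-1 and Mir125b-2) have a 5p strand that occurs in 1 other precursor, and 5 have a 5p strand of their own.

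The 3p strands of those 4 genes were each found in no other annotated precursor, and they are shown because they can be told apart where the 5p strands cannot.
let-7c-1-3p: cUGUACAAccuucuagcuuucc
let-7a-2-3p: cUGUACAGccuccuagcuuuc
miR-125b-1-3p: aCGGGUUAggcucuugggagcu
miR-125b-2-3p: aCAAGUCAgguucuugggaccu
The deposited tables assigned no read with several mapping loci to a gene, which left out 42.4% of replicate 1 and 43.2% of replicate 2. The counts of these 4 genes therefore hold only reads assigned to 1 locus, and counts do not separate the strands of a precursor. Near matches add a limit in the other direction, since reads given to the wrong gene were not measured. With 1 mismatch allowed, the let-7c strand is found in 4 other precursors (Mirlet7c-2, Mirlet7a-1, Mirlet7a-2 and Mirlet7b), the let-7a strand in 6, Mirlet7e among them, and the let-7e strand in 2 (Mirlet7a-1 and Mirlet7a-2).

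The hairpins of the let-7c pair show how far the copies are identical, with capitals for the longest run that both contain.
Mirlet7c-1 hairpin: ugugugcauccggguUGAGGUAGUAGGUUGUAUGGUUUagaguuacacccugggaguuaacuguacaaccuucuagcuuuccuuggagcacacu
Mirlet7c-2 hairpin: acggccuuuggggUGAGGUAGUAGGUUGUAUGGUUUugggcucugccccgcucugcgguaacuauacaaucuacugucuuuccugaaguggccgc
The shared run is 23 bases long, the 22 bases of the mature strand and 1 base after it. The Mirlet7a-2 and Mirlet7a-1 hairpins also share 23 bases, and the Mir125b-1 and Mir125b-2 precursors share 24, of which 2 stand before the mature strand. The longest run shared with any other precursor was shorter in the other 5 members, from 11 bases in Mir99b to 17 in Mirlet7e.

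The clusters differ in length. The Mir99b cluster spans 692 bases on chromosome 17, with Mir99b at chr17:17830188-17830257, Mirlet7e at chr17:17830352-17830444 and Mir125a at chr17:17830812-17830879, all on the plus strand. It lies within the protein-coding gene Spaca6, which acts in sperm-egg fusion. Mir99b and Mirlet7e are intronic in all 16 annotated Spaca6 transcripts, and Mir125a overlaps an exon in 1 of the 16. The Mir99a cluster spans 47408 bases of chromosome 16, inside introns of the noncoding gene Mir99ahg. Mir99a (chr16:77598936-77599000) and Mirlet7c-1 (chr16:77599657-77599750) are 656 bases apart there, and Mir125b-2 (chr16:77646273-77646343) follows after 46522 bases and also overlaps by a few bases an exon of C130023A14Rik, an unclassified gene on the same strand. Mir99a and Mirlet7c-1 also lie opposite an intron of the predicted gene Gm11146. The Mir100 cluster spans 50578 bases of chromosome 9, inside introns of the noncoding gene 3110039I08Rik, with Mir100 at chr9:41531425-41531504, Mirlet7a-2 at chr9:41536716-41536811 and Mir125b-1 at chr9:41581926-41582002. Mir100 also overlaps an exon of the noncoding gene Gm48742 on the opposite strand, and Mir125b-1 one of the sense-intronic gene Gm28119.

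Together the 9 members held 6.59% of microRNA gene counts in replicate 1, with a 95% Clopper-Pearson interval of 6.56 to 6.61, and 5.67% in replicate 2, with an interval of 5.65 to 5.70. The mean was 6.13% ± 0.647 (SD, n = 2). Most of this was 1 gene, Mir99a. The Mir99a cluster held 3.44% ± 0.480 of the counts, the Mir99b cluster 2.26% ± 0.110 and the Mir100 cluster 0.437% ± 0.0566 (SD, n = 2). The order of the clusters was the same in both libraries. In the Mir99a and Mir100 clusters, the let-7 and miR-125 genes have a 5p strand with another locus, and in the Mir99b cluster no gene does. Reads at several loci are in none of these sums, so the cluster shares may leave out unlike parts. All 9 members were detected, with no fewer than 471 counts in either library. Of all 2202 genes, 380 had at least 1 CPM in both libraries and 1493 had 0 counts in both.

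**Figure D1:**
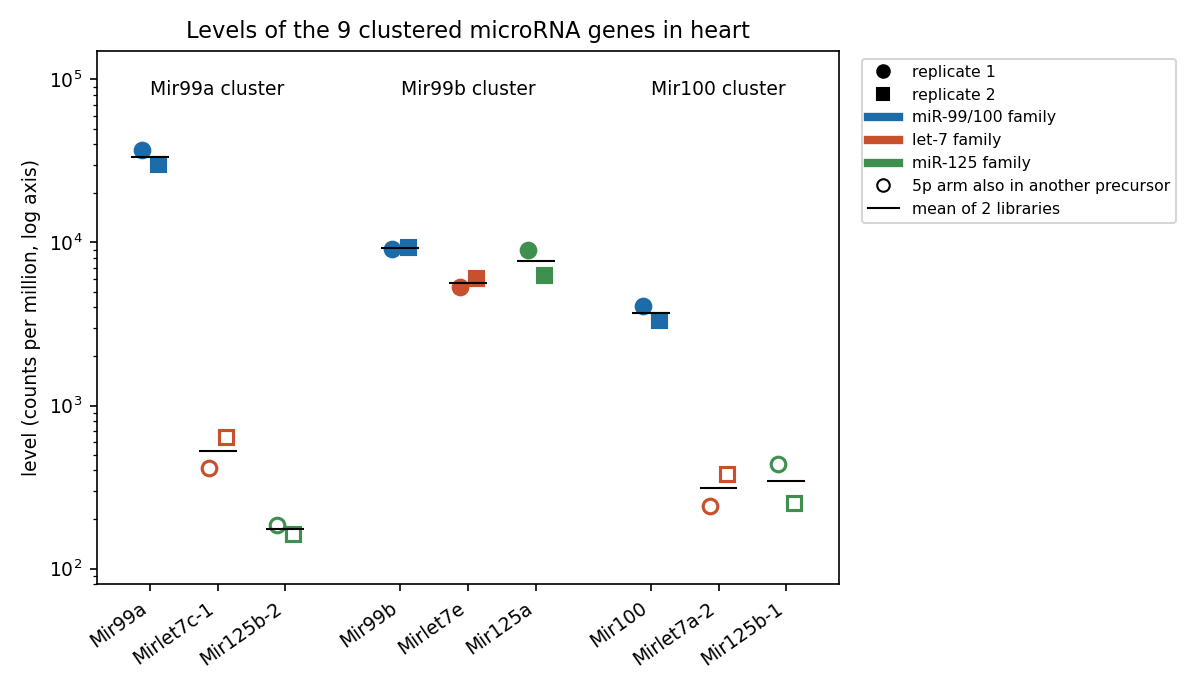
Level of each member in CPM (log axis), with a circle for replicate 1, a square for replicate 2 and a line at their mean. Open symbols are the 4 genes whose 5p strand also lies in another precursor, and none of them exceeds 643 CPM, whereas the lowest value of the 5 filled genes is 3339 CPM.

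In the miR-99/100 family, all 3 genes have a 5p strand of their own and lie in the clusters, and no other mature strand in the RefSeq table has the seed. Mir99a and Mir100 share a run of 16 bases, so shorter reads can fit both, and how many such reads went unassigned was not tested. Mir99a stood at 37147 CPM in replicate 1 and 30158 CPM in replicate 2. It ranked 9 and 12 among all genes in these libraries. Mir99b, the family member of the Spaca6 cluster, had 9064 CPM in replicate 1 and 9390 CPM in replicate 2. Mir100 had 4091 CPM in replicate 1 and 3339 CPM in replicate 2. The ranges of the 3 genes did not overlap, and their order was Mir99a, Mir99b, Mir100 in both libraries.

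Within the family, Mir99a supplied 73.8% of the counts in replicate 1 (95% binomial interval 73.7 to 74.0, exact), against 70.3% in replicate 2 (70.1 to 70.6). Mir99b supplied 18.0% and 21.9%, and Mir100 8.13% and 7.79% in replicates 1 and 2. Replicate 1 minus replicate 2, the share differed by 3.53 percentage points for Mir99a, by -3.87 for Mir99b and by 0.346 for Mir100. These shares take the assignment of reads as deposited: Mir99a and Mir100 differ at a single base, and reads given to the wrong gene of this pair were not measured.

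Among miR-125 genes, Mir125a had by far the most assigned reads. It stood at 8990 CPM in replicate 1 and 6362 CPM in replicate 2, a mean of 7676 ± 1858 CPM (SD, n = 2). Mir125b-1 had 439 CPM in replicate 1 and 253 CPM in replicate 2, and Mir125b-2 had 184 CPM in replicate 1 and 164 CPM in replicate 2. Mir125b-1 was above Mir125b-2 in both libraries and supplied 70.4% of the pair's reads in replicate 1 (95% binomial interval 68.6 to 72.2, exact) and 60.8% in replicate 2 (57.9 to 63.5). The miR-125b reads that fit both loci are in neither count, so the pair's level cannot be set against Mir125a from these tables.

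Outside the clusters, 3 genes carry a mature strand with the miR-125 seed. Mir351, an X-linked gene with this seed in rodents, had 349 CPM in replicate 1 and 417 CPM in replicate 2. Its 5p strand, miR-351-5p, is shown because it matches the family at the seed but is unlike it further on.
miR-351-5p: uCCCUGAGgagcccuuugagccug
Mir6367 and Mir6394 had 0 counts in both libraries, which allows a level of up to 0.717 CPM in replicate 1 and 1.04 CPM in replicate 2 (3 counts, counting error only).

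Mirlet7e was the let-7 member with the most assigned reads. It had 5298 CPM in replicate 1 and 6038 CPM in replicate 2. Mirlet7c-1 had 415 CPM in replicate 1 and 643 CPM in replicate 2, and Mirlet7a-2 had 243 CPM in replicate 1 and 379 CPM in replicate 2. All 3 stood lower in replicate 1. Together they held 0.651% ± 0.0781 of the counts, against 21.9% ± 5.06 for the 9 other let-7 genes (Mirlet7a-1, Mirlet7b, Mirlet7c-2, Mirlet7d, Mirlet7f-1, Mirlet7f-2, Mirlet7g, Mirlet7i and Mir98; SD, n = 2). Of these, Mirlet7b, Mirlet7g, Mirlet7i and Mirlet7d, each with a 5p strand of its own, were above Mirlet7e, at means from 26179 CPM for Mirlet7d to 82438 CPM for Mirlet7b. Reads that fit both loci of the let-7a, let-7c or let-7f strand are in neither summed share. The sums therefore compare assigned reads only, and not the let-7 made inside and outside the clusters. A pair of further genes with the let-7 seed, Mir1961 and Mir7k, had 2 and 3 counts in replicate 1 and 0 counts in replicate 2.

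The copies outside the clusters had more assigned reads than their clustered partners. Mirlet7c-2 stood at 977 CPM in replicate 1 and 1759 CPM in replicate 2, so that Mirlet7c-1 supplied 29.8% of the pair's reads in replicate 1 (95% binomial interval 28.7 to 31.0, exact) and 26.8% in replicate 2 (25.7 to 27.8). Mirlet7a-1 stood at 560 CPM in replicate 1 and 988 CPM in replicate 2, and Mirlet7a-2 supplied 30.2% of that pair's reads in replicate 1 (28.7 to 31.8) and 27.8% in replicate 2 (26.4 to 29.2). These shares describe reads that could be placed at one copy. Mirlet7f-2, whose strand is also in Mirlet7f-1, had 5155 CPM in replicate 1 and 4651 CPM in replicate 2, close to Mirlet7e. Its copy Mirlet7f-1 had 144 CPM in replicate 1 and 202 CPM in replicate 2. How many reads of this pair went unassigned was not tested.

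**Figure D2:**
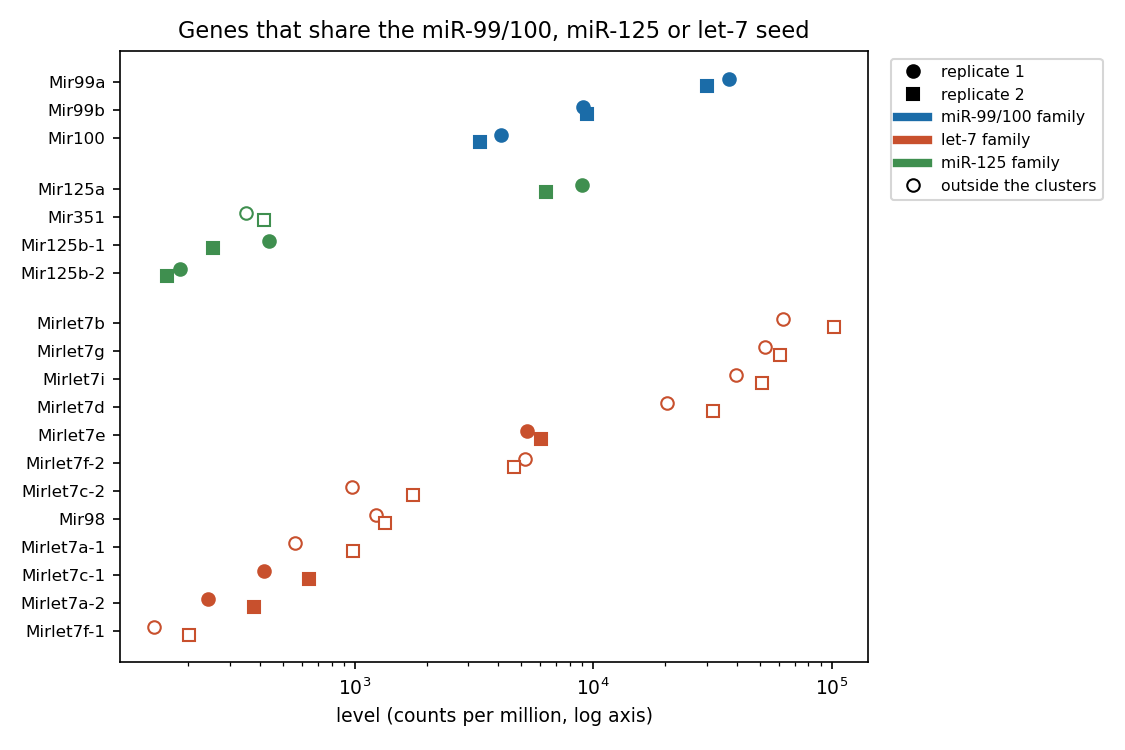
Levels of the genes that share the seed of a member, in CPM (log axis), with circles for replicate 1 and squares for replicate 2, filled for members and open for genes outside the clusters. All miR-99/100 genes are members, whereas 4 let-7 genes outside the clusters lie above every let-7 member; genes with a mean under 1 CPM (Mir1961, Mir7k, Mir6367 and Mir6394) are left out.

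In order of mean level the members ran Mir99a, Mir99b, Mir125a, Mirlet7e, Mir100, Mirlet7c-1, Mir125b-1, Mirlet7a-2 and Mir125b-2. The 5 genes with a 5p strand of their own took the 5 upper places. Seed relatives outside the clusters did not all follow this split. Mirlet7f-2, with a shared strand, lay above Mir100 in both libraries, and Mir351, with a strand of its own, lay below Mirlet7c-1. Between Mir100 and Mirlet7c-1, where the kinds of member meet, the means differed 7.02-fold. The libraries' ranges overlapped for Mirlet7c-1 and Mir125b-1 and for Mir125b-1 and Mirlet7a-2, so these neighbours did not differ beyond their spread. The other neighbours were apart, Mir99b and Mir125a only barely, with 9064 CPM as the lowest value of Mir99b and 8990 CPM as the highest of Mir125a. These levels are not divided by length, and the order was the same per 100 bases of precursor.

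Within clusters, the genes stood close in level in one cluster and far apart in the others. In the Mir99b cluster, where every 5p strand is unique, Mir99b had 1.71 times the reads of Mirlet7e in replicate 1 and 1.56 times in replicate 2, and 1.01 and 1.48 times those of Mir125a. In the Mir99a cluster, Mir99a had 89.4 times the reads of Mirlet7c-1 in replicate 1 and 46.9 times in replicate 2, and 201 and 184 times those of Mir125b-2. In the Mir100 cluster, Mir100 had 16.9 times the reads of Mirlet7a-2 in replicate 1 and 8.80 times in replicate 2, and 9.32 and 13.2 times those of Mir125b-1. The wide ratios were thus those between a gene with a unique strand and genes whose strand has a second locus. What part of them comes from reads that were not assigned was not tested.

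The let-7 gene took a smaller share of its cluster in replicate 1 than in replicate 2 in all 3 clusters. Mirlet7c-1 held 1.10% of the counts of its cluster in replicate 1 (95% binomial interval 1.05 to 1.15, exact) and 2.08% in replicate 2 (1.98 to 2.17). Mirlet7e held 22.7% in replicate 1 (22.4 to 23.0) and 27.7% in replicate 2 (27.4 to 28.1), and Mirlet7a-2 held 5.09% in replicate 1 (4.78 to 5.40) and 9.55% in replicate 2 (9.02 to 10.1). The intervals did not overlap in any of these pairs, nor for any other member except Mir125b-2. Differences beyond counting error were common, at 63.4% of all genes in the test between libraries given below. The intervals cover counting error only, and these shares do not depend on how the libraries were scaled.

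The miR-125 gene took a larger share in replicate 1 in 2 of the 3 clusters. Mir125a held 38.5% of its cluster in replicate 1 (95% binomial interval 38.2 to 38.8, exact) and 29.2% in replicate 2 (28.8 to 29.6), and Mir125b-1 held 9.19% in replicate 1 (8.80 to 9.60) and 6.38% in replicate 2 (5.94 to 6.84). Mir125b-2 held 0.489% in replicate 1 (0.455 to 0.524) and 0.529% in replicate 2 (0.482 to 0.578), with overlapping intervals. The miR-99/100 gene held a larger share in replicate 1 for Mir99a, 98.4% against 97.4%, and for Mir100, 85.7% against 84.1%, but a smaller one for Mir99b, 38.8% against 43.1%. The shares within a cluster sum to 100%, so these differences are tied to each other.

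**Figure D3:**
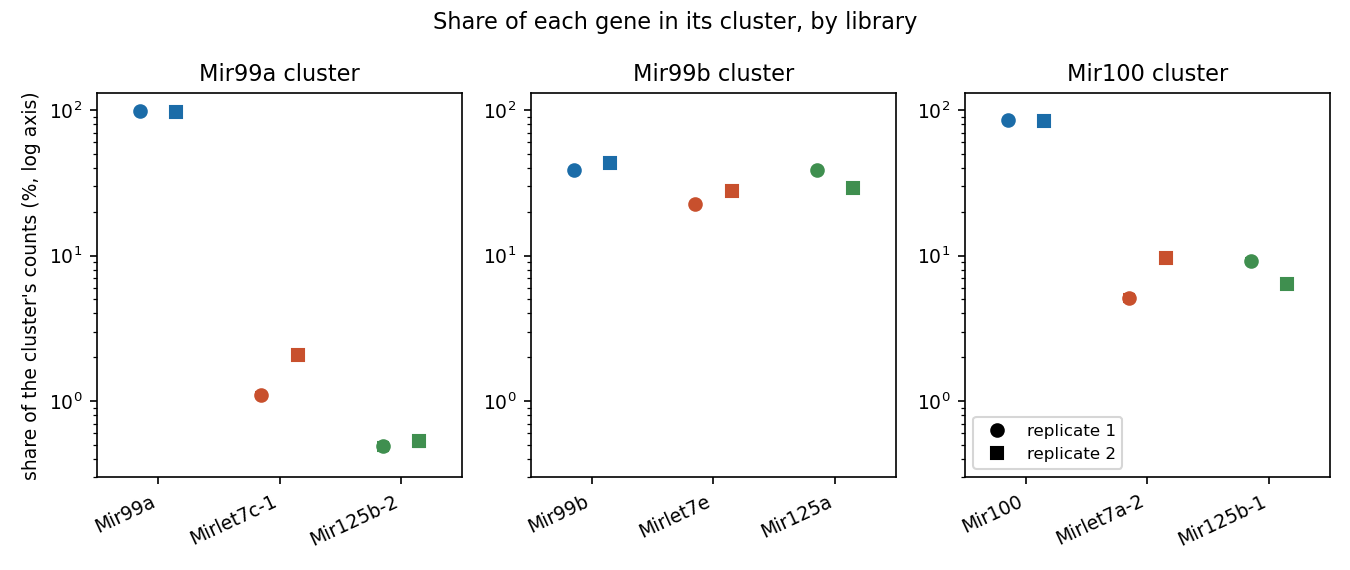
Share of each gene in the counts of its cluster (percent, log axis), with circles for replicate 1, squares for replicate 2, colours for the families (blue miR-99/100, red let-7, green miR-125) and exact 95% intervals that are mostly smaller than the symbols. The middle gene of each panel, the let-7 gene, is lower in replicate 1 in all 3 clusters, and the Mir99b cluster is the one in which the genes lie close together.

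Between the libraries, each gene kept by a filter on low counts was tested with an exact two-sided binomial test on its counts, given totals scaled by TMM (trimmed mean of M values), with Benjamini-Hochberg adjustment over all 309 genes tested. The test compares these libraries and no conditions. Of the 9 members, all of which were tested, 8 differed beyond counting error, beside 63.4% of all genes tested. Of these, 4 were higher in replicate 1, where the share over all genes was 28.2%, and 4 were lower, where it was 35.3%. Differences of this kind were thus common in the tables. Smaller differences pass this test in genes with more counts. Every member had at least 471 counts in each library, and the filter kept genes with far fewer. The shares over all genes are therefore not those of genes of like depth, and the tallies of members show no excess over them. The median size of the log2 ratio was 0.26 over the members and 0.51 over all genes tested. Counting error widens the ratios of genes with few counts, so these medians do not compare genes of like depth.

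Log2 ratios are given as replicate 1 over replicate 2. Mir125b-1 was the most raised member in replicate 1, with a log2 ratio of 0.72 (exact 95% interval 0.60 to 0.85, adjusted p = 2.45e-31), a 1.65-fold difference. Mir125a (log2 ratio 0.43, 0.40 to 0.45), Mir99a (0.23, 0.22 to 0.24) and Mir100 (0.22, 0.18 to 0.26) were also higher in replicate 1. Mir125b-2 did not pass the test, with a log2 ratio of 0.10 (interval -0.07 to 0.27, exact binomial test, adjusted p = 0.333). No miR-125 gene was lower in replicate 1, and Mir351, the seed relative outside the clusters, was lower there (log2 ratio -0.33, adjusted p = 1.76e-08 in the exact test).

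The 3 let-7 members were all lower in replicate 1. Mirlet7a-2 had a log2 ratio of -0.72 (exact 95% interval -0.84 to -0.59, adjusted p = 2.30e-29), Mirlet7c-1 one of -0.70 (-0.80 to -0.61) and Mirlet7e one of -0.26 (-0.29 to -0.23). Of the 9 let-7 genes outside the clusters, 8 were lower in replicate 1 and 1, Mirlet7f-2, was higher (log2 ratio 0.08). Over all genes tested, 35.3% were lower and 28.2% higher. The median log2 ratio was -0.56 over the 9 beside -0.01 over all genes tested. Several let-7 strands differ by 1 base, and reads given to the wrong gene were not measured, so these genes are not independent of each other. Mir99b was the fourth lower member, with the smallest called ratio of the 9 (-0.12, interval -0.15 to -0.10).

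The shares of marker microRNAs also differed between the libraries. The heart muscle list had counts for 7 of 7 genes, the lowest being 3, and only 4 entered the test. Of these, 3 were higher in replicate 1, 0 were lower and 1 was not called. The list held 0.654% of the counts in replicate 1 and 0.479% in replicate 2, nearly all from Mir499 and Mir208a. Its copies Mir1a-1 and Mir1a-2 encode the same mature strand, and Mir1a-1 had 9 assigned counts in each library, so the share leaves out reads at several loci and cannot be set against those of other lists. The endothelial list held 17.6% in replicate 1 and 5.00% in replicate 2, but this was Mir126a alone (log2 ratio 1.83), while Mir221 (-0.89) and Mir222 (-0.73) were lower in replicate 1. The fibroblast list, at 0.529% in replicate 1 and 0.373% in replicate 2, was split too, with Mir214 higher (log2 ratio 1.59) and Mir21a lower (-0.39) in replicate 1. The smooth muscle list, with both genes lower in replicate 1, held 3.29% and 5.63%, and the leukocyte list, with 4 of 4 lower, 0.537% and 0.764% in replicates 1 and 2. The red cell list, with both genes higher in replicate 1, held 0.0755% and 0.0230%. Beside these tallies in short lists, 35.3% of all genes tested were lower in replicate 1 and 28.2% were higher. Among the markers, Mir199a-1 of the fibroblast list and Mir9-2, Mir124a-1, Mir124a-2 and Mir124a-3 of the neuron list had 0 counts in both libraries, in reads unique to a locus, and the neuron list summed to 3 and 66 counts. The hepatocyte gene Mir122 had 80 and 165 counts. The part of these shares in the differences of the clustered genes was not tested, and in bulk tissue fewer cells of a type and less RNA per cell cannot be told apart.

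**Figure D4:**
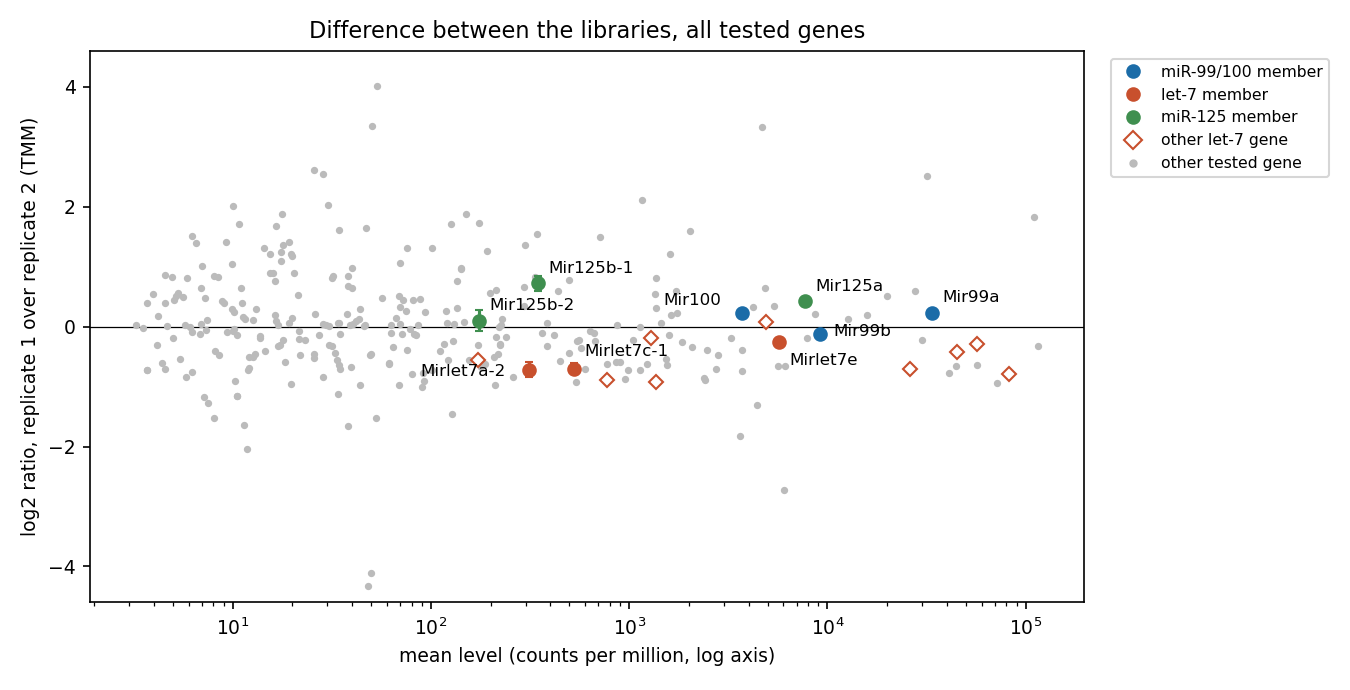
Log2 ratio of replicate 1 over replicate 2 (TMM-scaled) against mean level (CPM, log axis) for the 309 tested genes, with exact 95% intervals on the members. The let-7 members lie below 0 together with 8 of the 9 other let-7 genes (open diamonds), beside 35.3% of all genes tested that were called lower. The miR-125 members lie above 0, Mir125b-2 with an interval that spans it. All members lie inside the range of all genes tested, -4.32 to 4.02, whose ends are genes with fewer counts than any member.

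Strand mattered for 1 member. Mirlet7e lies inside the microRNA gene Gm25927 of the opposite strand (chr17:17830343-17830459). By the strand of the gene, Mirlet7e had 22182 counts in replicate 1 and 17375 in replicate 2, and Gm25927 had 0 and 1. With strand ignored, both genes had 0 counts in both libraries, since such reads were then ambiguous. Over all 9 members, the opposite strand held 0 reads in replicate 1 and 1 read in replicate 2.

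The genes most like the highest member of each cluster, by Euclidean distance of log2(CPM + 0.5) over the 2 libraries, came from other families. Nearest to Mir99a were Mir26b at a distance of 0.39 and Mir29a at 0.52. Nearest to Mir99b were Mir30e at 0.27 and Mir191 at 0.33. Nearest to Mir100 were Mir499, the microRNA of the myosin gene Myh7b, at 0.25 and Mir322 at 0.39. Mir499 had 4787 CPM in replicate 1 and 3618 CPM in replicate 2. Likeness over 2 libraries is mostly likeness of level.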

How the data were processed

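Each library has a deposited table of raw read counts for microRNA genes, whose 3 columns ignore strand, follow the strand of the gene or take the opposite strand. The deposited readme names build mm10 and annotation M21. The aligner is not given in the sources used here. Excluded from totals were the 4 rows of reads assigned to no gene (unmapped, at several loci, outside genes, ambiguous). Their shares were 19.0%, 42.4%, 6.94% and 0% for replicate 1, which had 13233055 reads, and 17.5%, 43.2%, 7.11% and 0% for replicate 2, which had 8930289.

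From these counts, CPM values over all gene rows were computed on the gene-strand column, with totals of 4186560 and 2877511. Intervals are exact 95% Clopper-Pearson intervals that cover counting error alone, because reads that carry no molecular identifier cannot be counted as molecules. Duplicate libraries were checked for: over the genes with a count, chi-square came to 830 per degree of freedom. Genes kept by filterByExpr (minimum count 10) entered the exact binomial test on totals scaled by TMM in edgeR 4.0.16 (R 4.3.3), with a threshold of 0.05 on the adjusted p. DESeq2 1.42.0 gave alternative size factors. A test of the shares within clusters adjusted over the members alone had been planned and is not reported, and intervals are given instead. Other steps ran in Python 3.11.15 with pandas 2.3.3, scipy 1.17.1, numpy 2.4.6 and matplotlib 3.10.9. The binomial step was run on simulated counts with counting error alone, which checks the computation and not the spread between these libraries.

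All 2202 identifiers matched release M21, whose transcripts gave the precursors searched for shared strands. The genome outside these precursors was not searched. All 9 members had a mature entry in the RefSeq table of build GRCm38.p6. The 5p strand of Mirlet7a-2, listed there under Mirlet7a-1, was located in its hairpin. The hairpins of Mir99b and Mir125b-2 are not shown. The members and lists were chosen with earlier results of these data known. Named genes were the members, the other let-7 genes, other genes with a member's seed, the 2 genes nearest to the highest member of each cluster and overlapping genes of the other strand. The markers named were those at 0, Mir122 and, chosen after their values were seen, those that carry or divide a list. Alternatives covered strand, replicates, denominator, precursor length, scaling, filter and pseudocount.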

Additional observations from a re-analysis of the deposited data

How the results depend on the processing

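Every member kept its direction and its side of the threshold in the tests with DESeq2 size factors, plain totals and no filter beyond 1 count. So did the 8 members still tested with strand ignored, where Mirlet7e had no reads. With plain totals Mir99b came nearest to 0, at -0.05. With strand ignored, the summed share of the members was 7.52%, that of the Mir99a cluster 4.65% and that of the Mir100 cluster 0.591%, because reads of genes that overlap on opposite strands left the total. The share of Mirlet7e in its cluster was then 0 in both libraries, so the difference between them was 0. Over all reads, assigned or not, the members held 1.96%, the Mir99a cluster 1.10%, the Mir99b cluster 0.720% and the Mir100 cluster 0.139%. Of the 9 places in the order of levels, 6 changed with strand ignored, and 2 changed when either replicate was left out. The tests between libraries have no value with a replicate left out. Without filter the background was 30.2% of 709 genes. No paired analysis was possible because the design holds 1 group. Mir125b-2, with 772 counts in replicate 1 and 471 in replicate 2, had the widest interval of the members, and its adjusted p in the exact test ran from 0.0672 to 0.510 over these settings. The unassigned reads limit every statement on Mirlet7c-1, Mirlet7a-2, Mir125b-1 and Mir125b-2.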
